A study of Mus musculus with 11 samples.

Results

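Imprinted genes of the growth network were followed in 2 clonally derived progenitor lines of interstitial cells of Cajal (ICC) and in the mouse stomach muscle from which the lines were derived. An imprinted gene is expressed mainly from the chromosome of 1 parent. The 10 listed genes were taken by symbol from the array's annotation: Meg3, H19, Igf2, Cdkn1c, Dlk1, Peg3, Mest, Plagl1, Grb10 and Ndn. A probe set (a group of probes summarised as 1 value) that carries only that symbol was found for 9 of the 10. The H19 probe set also carries the symbol of the microRNA gene Mir675, so no value is given for H19. The 9 measured genes have 36 probe sets, of which 29 passed the filter on low values, and all 9 genes were among the 13285 tested of 18193 named genes. Each gene is described first by its main probe set, the brightest on average across 11 arrays, then by the others.

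The wild-type line (the C57BL/6J line, 3 arrays) came from the gastric tunica muscularis of C57BL/6J mice. It was kept at 37 °C in a neural stem cell proliferation medium to which 5% chick embryo extract was added. The conditionally immortalised line (the tsA58 line, 3 arrays) was derived from that tissue of H-2Kb-tsA58 mice, with a transgene for a heat-sensitive form of the SV40 large T antigen that interferon induces through the H-2Kb promoter. It was kept in the same base medium at 39.5 °C with no interferon-gamma, and the labels name no extract for it. The series title calls both lines clonally derived, so a line stands for 1 clone. The matched tissues were the muscular wall of the stomach of C57BL/6J mice (2 arrays) and of H-2Kb-tsA58 mice (3 arrays), and neither the age nor the number of animals is given in the sources used here. Strain, transgene, clone, temperature and extract differ together between the lines.

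Imprinted genes often act as a group in fetal and early postnatal growth. Paternally expressed members such as Igf2, Dlk1, Peg3 and Mest tend to favour growth, while maternally expressed Cdkn1c and Grb10 restrain it. Plagl1 (also called Zac1) encodes a zinc finger transcription factor that is known to regulate several other imprinted genes. Meg3 and H19 are non-coding RNAs made from the maternal chromosome, each beside a paternally expressed growth factor gene, Dlk1 and Igf2 respectively. In the RefSeq gene order used here (assembly GRCm38.p6) Dlk1 and Meg3 lie on chromosome 12 with 0 protein-coding genes between them, and H19 and Igf2 lie on chromosome 7, likewise with 0 between them.

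Promoter windows of 300 bases (250 before and 50 after an annotated start, RefSeq, GRCm38.p6) were found for 8 of the 9 measured genes, and those of 5 are printed: Plagl1, Mest and Ndn, which were low in both lines, Meg3, which parted the lines, and Peg3, which was high in every group. Capitals mark each CG dinucleotide, the site at which imprinting control regions are methylated. Where a gene had several starts, the window with the most CG dinucleotides was taken (for a tie, the one that begins first), and the start these cells use was not measured.
Plagl1 (chr10:13090582-13090881, plus strand): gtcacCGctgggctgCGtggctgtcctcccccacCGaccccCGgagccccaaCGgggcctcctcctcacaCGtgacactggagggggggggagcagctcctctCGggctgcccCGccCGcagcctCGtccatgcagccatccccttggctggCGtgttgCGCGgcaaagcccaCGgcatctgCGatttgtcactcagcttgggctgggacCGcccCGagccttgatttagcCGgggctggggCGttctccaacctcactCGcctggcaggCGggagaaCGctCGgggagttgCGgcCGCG
Mest (chr6:30737800-30738099, plus strand): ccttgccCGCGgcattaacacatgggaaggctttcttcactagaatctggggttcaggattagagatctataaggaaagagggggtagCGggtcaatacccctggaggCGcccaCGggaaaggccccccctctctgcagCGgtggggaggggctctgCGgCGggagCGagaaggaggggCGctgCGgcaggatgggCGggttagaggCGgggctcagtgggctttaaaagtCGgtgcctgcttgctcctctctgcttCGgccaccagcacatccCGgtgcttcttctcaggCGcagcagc
Ndn (chr7:62348027-62348326, plus strand): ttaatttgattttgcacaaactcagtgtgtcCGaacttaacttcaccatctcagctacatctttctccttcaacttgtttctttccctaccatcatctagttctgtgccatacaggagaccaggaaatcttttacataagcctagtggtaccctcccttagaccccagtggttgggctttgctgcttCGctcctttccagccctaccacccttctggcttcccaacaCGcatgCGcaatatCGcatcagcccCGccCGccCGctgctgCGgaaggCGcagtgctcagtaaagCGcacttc
Meg3 (chr12:109540746-109541045, plus strand): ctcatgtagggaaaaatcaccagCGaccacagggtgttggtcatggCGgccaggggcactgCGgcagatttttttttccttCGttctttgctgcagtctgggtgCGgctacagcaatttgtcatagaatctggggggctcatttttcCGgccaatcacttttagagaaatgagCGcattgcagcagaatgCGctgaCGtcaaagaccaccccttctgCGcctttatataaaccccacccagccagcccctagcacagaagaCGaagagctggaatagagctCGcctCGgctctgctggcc
Peg3 (chr7:6730370-6730669, minus strand): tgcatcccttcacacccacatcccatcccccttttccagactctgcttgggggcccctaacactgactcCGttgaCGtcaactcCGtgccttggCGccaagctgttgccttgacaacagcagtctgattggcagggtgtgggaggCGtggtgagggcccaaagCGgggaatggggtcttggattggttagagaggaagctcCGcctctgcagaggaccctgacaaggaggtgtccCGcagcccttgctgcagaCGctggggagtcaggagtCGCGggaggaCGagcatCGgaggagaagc

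These windows hold 26 CG dinucleotides for Plagl1, 17 for Mest, 11 for Ndn, 13 for Meg3 and 13 for Peg3, against a median of 7 over 32851 windows. The palindromic cyclic AMP response element TGACGTCA occurs once in the Meg3 window, from base 194, and once in the Peg3 window, from base 73. It is present in 1.79% of all windows. A TATA box (TATAAA on either strand) follows in the Meg3 window from base 222, where the matches on the 2 strands overlap, and 13.62% of windows hold one. The element GGGGCCCC, also palindromic and reported for the Plagl1 protein, occurs in the Peg3 window from base 50 and in 1.08% of all windows. None of these 3 motifs is in the printed windows of Plagl1, Mest or Ndn. A match describes the letters of the window and no binding was measured.

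Levels are log2 intensities, so a difference of 1 is a 2-fold change, and levels of different probe sets are not compared. A gene is called when its Benjamini-Hochberg adjusted p from limma, over all genes tested, is below 0.05 and the change is at least 2-fold. Values at or below about the array median (4.66 to 4.84) cannot be told from background here, and a difference that ends there may be understated. Replicate arrays correlated at 0.956 to 0.991 across probe sets. The sample titles call the arrays biological replicates without naming separate cultures or mice, so p-values measure the spread between these arrays, which may in part be technical. Hybridisation controls ran from 9.33 to 9.90 on C57BL/6J line arrays and from 10.77 to 10.96 on those of its tissue. On tsA58 arrays they ran from 7.93 to 8.26 (line) and from 7.52 to 9.66 (tissue). Of 5 ICC progenitor markers, 4 (Cd34, Cd44, Insr and Igf1r) were above the array median on every line array. Kit, the defining receptor of the lineage, lay at 3.16 to 3.87 on the 6 line arrays, below the median.

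By their main probe sets, most of the 9 genes were far lower in the lines than in the muscle they came from. In the C57BL/6J line 5 of 9 were lower (Cdkn1c, Dlk1, Mest, Plagl1 and Ndn) and 1 was higher (Igf2), where 16.6% of all genes were called lower and 17.5% higher. The tsA58 line had 6 of 9 lower than tsA58 tissue (the same 5 and Meg3) and 0 higher, against 18.9% lower and 12.8% higher among all genes. The median difference of the 9 was -4.04 in the C57BL/6J line and -4.01 in the tsA58 line, against 0.12 and 0 over all genes. Peg3 and Grb10 were called in neither by their main probe sets. Centring the arrays on the hybridisation controls turned the split of all genes from 2326 higher and 2204 lower to 5148 and 723 in the C57BL/6J strain, and from 1698 and 2516 to 1821 and 1151 in the tsA58 strain. The 5 shared genes kept their negative sign in both, and Dlk1 lost its call in the tsA58 strain (-1.52, limma adjusted p = 0.0615).

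**Figure D1:**
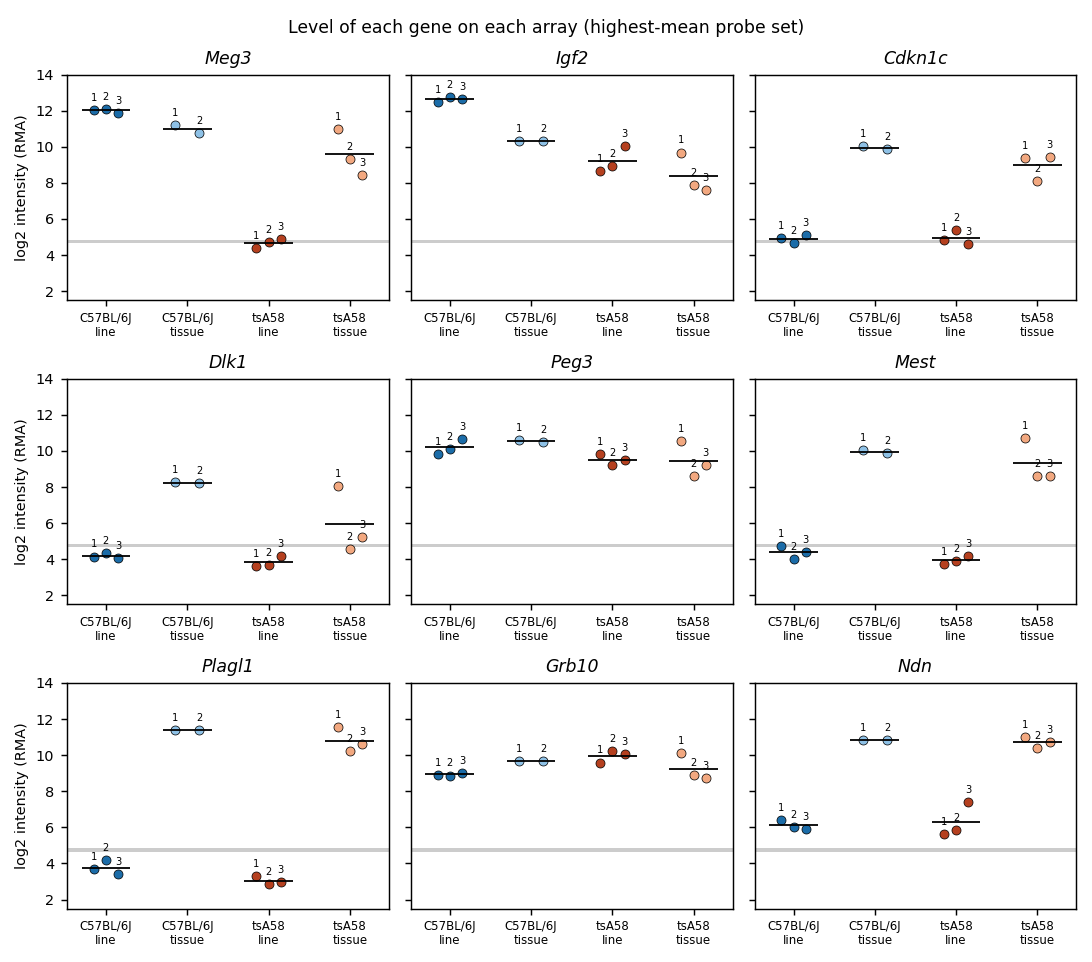
Log2 intensity (y axis) of the highest-mean probe set of each of the 9 genes on each array, by group (x axis), with points numbered by replicate, a bar at the group mean and a grey band at the range of array medians, 4.66 to 4.84. Plagl1, Mest, Cdkn1c and Dlk1 lie near or below the band in both lines, and Meg3 lies near it in the tsA58 line.

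Plagl1, the transcription factor of the network, was lower in both lines than in tissue. It stood at 3.68, 4.21 and 3.41 on the arrays of the C57BL/6J line and at 11.37 and 11.41 in its tissue. In the tsA58 line it stood at 3.30, 2.87 and 2.96, and in tsA58 tissue at 11.55, 10.25 and 10.62. All 6 line arrays were below the array median and all 5 tissue arrays were above 10, so the groups lay far apart. The difference was -7.62 ± 0.36 (SE; limma adjusted p = 1.39e-07) in the C57BL/6J strain and -7.77 ± 0.32 (limma adjusted p = 2.28e-08) in the tsA58 strain, each read against line arrays at background. A second Plagl1 probe set above the filter was lower in both lines too, by differences of -1.37 and -2.25. The third, 3.99 to 4.62 on all arrays, did not pass the filter.

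Mest encodes a hydrolase-like protein of mesoderm and is expressed from the paternal chromosome. Its single probe set stood at 4.71, 4.01 and 4.41 in the C57BL/6J line and 10.03 and 9.87 in its tissue. The tsA58 line had 3.74, 3.92 and 4.2, and tsA58 tissue had 10.73, 8.59 and 8.63. Every line array lay below its array's median and every tissue array lay far above. The differences were -5.57 ± 0.54 and -5.36 ± 0.48 (limma adjusted p = 1.93e-05 and 9.07e-06).

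Cdkn1c encodes p57, an inhibitor of cyclin-dependent kinases that stops the cell cycle. Its level was 4.96, 4.64 and 5.11 in the C57BL/6J line against 10.05 and 9.85 in tissue. In the tsA58 line it was 4.84, 5.39 and 4.62 against 9.39, 8.08 and 9.41. The lines overlapped each other near the array median. Against tissue, Cdkn1c was lower in the C57BL/6J line (difference -5.04 ± 0.39) and in the tsA58 line (-4.01 ± 0.35; limma adjusted p = 4.72e-06 and 6.86e-06), and the difference between the lines was 0.05 ± 0.35.

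Ndn encodes necdin, a growth-suppressing protein best known from neurons. By its highest-mean probe set it was 6.43, 6.01 and 5.92 in the C57BL/6J line and 10.84 and 10.86 in tissue, and 5.62, 5.86 and 7.42 in the tsA58 line and 11.03, 10.40 and 10.70 in its tissue. This gave differences of -4.73 ± 0.45 and -4.41 ± 0.40 (limma adjusted p = 1.73e-05 and 9.95e-06). All 5 Ndn probe sets above the filter were called lower in both lines, with differences of -8.17 to -4.73 and -5.47 to -4.41. Among all probe sets tested, 16.1% were called lower in the C57BL/6J line and 16.8% in the tsA58 line. The other 3 Ndn probe sets stayed between 2.59 and 3.61 on every array.

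Between the lines, the Ndn probe sets disagreed. The highest-mean probe set gave 0.18 ± 0.40, while the other 4 above the filter gave 2.57 to 2.95 and were called higher in the tsA58 line, where 8.90% of all probe sets were. On these 4, the C57BL/6J line arrays lay at 2.46 to 3.37, replicates 1 and 2 of the tsA58 line at 4.47 to 5.4, and replicate 3 at 6.73 to 7.04. Ndn was thus lowest in the C57BL/6J line by these 4 probe sets. Most of that gap lies close to or below the array median, apart from replicate 3.

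Dlk1 encodes a membrane-bound and shed relative of the Notch ligands that keeps preadipocytes and other precursors undifferentiated. Its level was 4.15, 4.36 and 4.06 in the C57BL/6J line and 8.26 and 8.21 in tissue. In the tsA58 line it was 3.6, 3.69 and 4.17, and in tsA58 tissue 8.03, 4.54 and 5.23. All line arrays were below the array median, and so was tsA58 tissue replicate 2. The differences were -4.04 ± 0.76 (limma adjusted p = 0.00147) and -2.11 ± 0.68 (limma adjusted p = 0.0259). Without tsA58 tissue replicate 1 the tsA58 difference was -1.07, still called, and that call ended without tsA58 line replicate 1 or 2 (differences -2 and -2.05; limma adjusted p = 0.0722 and 0.0639) and with only the groups compared in the fit (limma adjusted p = 0.0841). The other Dlk1 probe set stayed at 3.29 to 4.15.

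**Figure D2:**
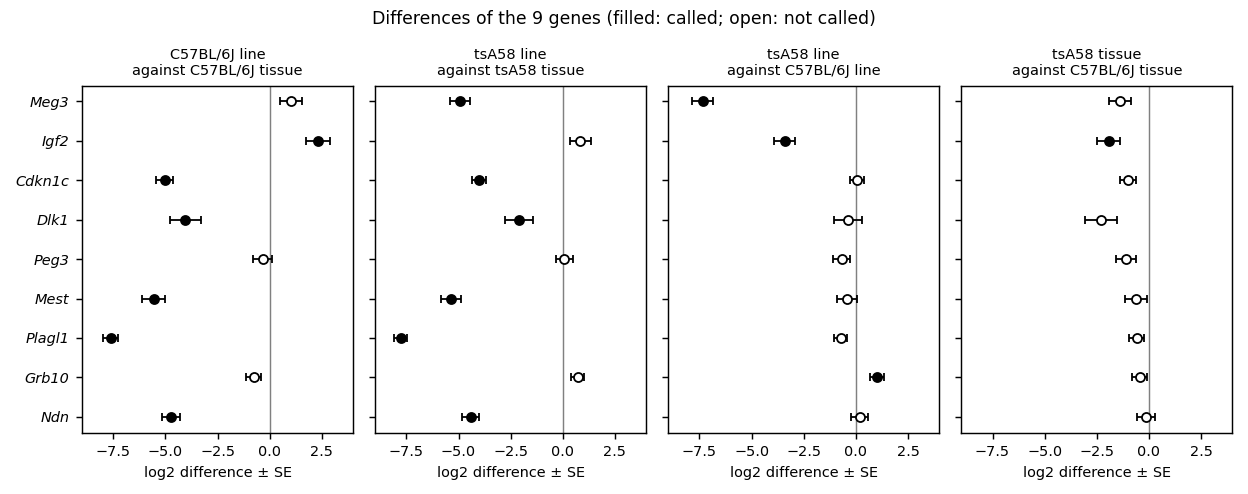
Log2 difference (x axis) with its standard error for each of the 9 genes in 4 comparisons, filled where called and open where not. Plagl1, Mest, Cdkn1c, Ndn and Dlk1 lie to the left in both line-tissue panels, while Meg3 and Igf2 lie furthest left between the lines.

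The tissue arrays hold RNA of the muscle wall and of other tissue, and in bulk RNA fewer expressing cells and less RNA per cell cannot be told apart. Gastric epithelium markers (8 genes) averaged 10.06 to 12.74 on the tissue arrays and 5.1 to 5.75 on the line arrays. Exocrine pancreas markers (4 genes) averaged 10.53 on C57BL/6J tissue replicate 1 and 9.56 on tsA58 tissue replicate 2. Smooth muscle markers moved with the 5 genes: the mean of 8 was 10.80 to 12.45 on the tissue arrays, where all 8 were above the median, and 5.41 to 6.14 on the line arrays, where 4 or 5 were. Enteric neuron markers (10 genes) averaged 8.49 to 9.53 in tissue and 3.81 to 4.57 in the lines. Among them Snap25 and Uchl1 stayed at 7.61 to 8.31 in the C57BL/6J line, against 9.39 to 9.84 in its tissue. Fibroblast markers (7 genes) averaged 10.38 to 11.35 in tissue, 8 to 8.06 in the C57BL/6J line and 6.78 to 8.08 in the tsA58 line. Of these, Col1a1 (12.01 to 12.16) and Col1a2 (12.91 to 13.02) were higher in the C57BL/6J line than in its tissue (11.62 to 11.76 and 12.5 to 12.52), and the others were lower. Mesothelium markers (5 genes) averaged 10.05 to 10.79 in the C57BL/6J line and 9.19 and 9.34 in its tissue. In the tsA58 line they averaged 6.29 to 9.86 and in its tissue 9.06 to 9.53. The part of these cell types in the line-tissue differences was not tested.

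Igf2 encodes the fetal insulin-like growth factor that signals through the Igf1 and insulin receptors. By main probe sets it was the 1 gene of the 9 called higher in a line than in its tissue. On its main probe set the C57BL/6J line had 12.49, 12.77 and 12.63 and its tissue 10.33 and 10.32. The tsA58 line had 8.66, 8.95 and 10.02 and its tissue 9.68, 7.89 and 7.58. Every array of the C57BL/6J line was above every other array, and the tsA58 line overlapped its tissue. Igf2 was higher by 2.31 ± 0.56 in the C57BL/6J line than in tissue (limma adjusted p = 0.00613), and the tsA58 line-tissue difference of 0.83 ± 0.50 was not called (limma adjusted p = 0.197, 95% interval -0.27 to 1.93). That difference was 1.48 and called when tsA58 tissue replicate 1 was left out (limma adjusted p = 0.00659).

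Between the lines, Igf2 was lower in the tsA58 line, with a difference of -3.42 ± 0.50 (limma adjusted p = 0.00102), a 10.7-fold difference, and between the tissues it was lower in the tsA58 strain, with a difference of -1.94 ± 0.56 (limma adjusted p = 0.033). The second Igf2 probe set lay at 5.07 to 5.49 in the C57BL/6J line and at 3.11 to 3.95 on all other arrays, and was likewise called higher in that line than in its tissue (1.60) and lower in the tsA58 line than in the C57BL/6J line (-1.80). The difference between the 2 line-tissue differences, -1.48 ± 0.75, was not called on the main probe set (limma adjusted p = 0.181) but was on the second (-1.37 ± 0.33, limma adjusted p = 0.013). The tissue difference lost its call without either C57BL/6J tissue array (limma adjusted p = 0.154 without replicate 1 and 0.15 without replicate 2), without tsA58 tissue replicate 2 or 3 (0.0763 and 0.0951) and without C57BL/6J line replicate 1 (0.0516). It turned to 0.18 under centring on the hybridisation controls.

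Meg3, the maternally expressed non-coding RNA beside Dlk1, was high in the C57BL/6J line and near background in the tsA58 line. On its main probe set it stood at 12.06, 12.11 and 11.86 in the C57BL/6J line and at 4.41, 4.7 and 4.91 in the tsA58 line. C57BL/6J tissue had 11.19 and 10.78, and tsA58 tissue had 11, 9.34 and 8.45. The tsA58 line was near background while all other arrays were above 8. Between the lines the difference was -7.34 ± 0.50 (limma adjusted p = 1.08e-05). Against its own tissue the tsA58 line was lower, with a difference of -4.93 ± 0.50 (limma adjusted p = 2.14e-05). The C57BL/6J line differed from its tissue by 1.02 ± 0.55, which was not called (limma adjusted p = 0.156). It was called without tsA58 tissue replicate 1, whose spread the fit shares (limma adjusted p = 0.0136), with only the groups compared in the fit (0.00255) and with centring on the hybridisation controls (2.26, limma adjusted p = 0.00557).

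The line-tissue difference of Meg3 itself differed between the strains by -5.95 ± 0.74 (limma adjusted p = 0.000792). By main probe sets, 1 of the 9 genes was called for that difference of differences, Meg3, where 13.0% of all genes were called lower and 7.30% higher. Among the alternatives that left out 1 array it ranged from -6.52 to -5.25. Centring on the hybridisation controls moved the split of all genes from 970 higher and 1732 lower to 127 and 450. Other probe sets were called for it too in the fit over all probe sets: Igf2 1415931_at (-1.37 ± 0.33), Peg3 1417355_at (1.86 ± 0.54), Grb10 1430164_a_at (2.45 ± 0.59) and 3 of Ndn (2.52 to 2.7). The call is thus not particular to Meg3. The main Grb10 probe set came next by adjusted p, at 1.47 ± 0.49 (limma adjusted p = 0.0521, and 0.0486 in the fit over all probe sets), and without tsA58 tissue replicate 1 both Grb10 (1.9) and Dlk1 (2.98) were called as well.

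The 11 Meg3 probe sets did not all follow the main one. Between the lines, 5 were called lower in the tsA58 line (differences -8.02 to -4.85), where 5.49% of all probe sets were, and 6 were not (-1.43 to -0.18). The 5 lay at 9.64 to 12.11 in the C57BL/6J line and 3.09 to 6.18 in the tsA58 line. The other 6 lay at 4.13 to 7.11 and 3.70 to 5.80. In C57BL/6J tissue the ranges were 8.46 to 11.28 for the 5 and 5.15 to 9.06 for the 6.

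Against C57BL/6J tissue, the probe sets even moved in opposite directions in the C57BL/6J line. Called higher were 1426758_s_at (2.21 ± 0.70) and 1452183_a_at (2.17 ± 0.69), which the annotation ties to the same sequence record, where 18.8% of all probe sets were called higher. Called lower were 1428764_at (-2.75 ± 0.61), 1452906_at (-1.80 ± 0.64) and 1429257_at (-1.26 ± 0.17), where 16.1% of all probe sets were called lower. In the tsA58 line against its tissue, 10 of 11 were called lower, at -5.77 to -1.13, and 0 higher. Among all probe sets 16.8% were called lower and 14.6% higher. Some of the 10 leaned on tsA58 tissue replicate 1. On 1436057_at the tissue read 7.11, 5.39 and 5.39 and the line 4.81, 4.55 and 5.14. On 1429256_at the tissue read 9.02, 5.18 and 5.24 and the line 4.39, 4.15 and 4.35. The difference of differences was called lower for 5 probe sets and higher for 1, against 13.1% and 9.13% of all probe sets. Against its tissue, Meg3 was thus lower in the tsA58 line by 10 of 11 probe sets, while its level in the C57BL/6J line relative to tissue depended on the probe set.

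**Figure D3:**
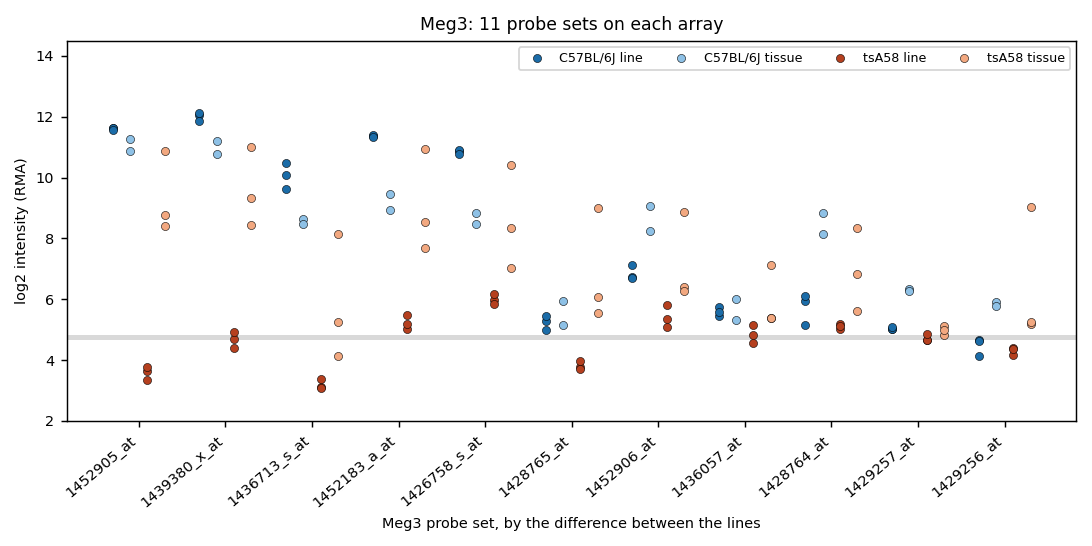
Log2 intensity (y axis) of the 11 Meg3 probe sets (x axis, ordered by the difference between the lines) on each of the 11 arrays, coloured by group, with the range of array medians in grey. On the 5 probe sets at the left the C57BL/6J line lies at 9.64 to 12.11 and the tsA58 line at 3.09 to 6.18, and on the 6 at the right the lines are no more than 1.43 apart in their means.

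Rian and Mirg, non-coding RNAs that lie beyond Meg3 in the same imprinted cluster of chromosome 12, were on the list of other imprinted genes. Rian stood at 7.90, 7.35 and 8.30 in the C57BL/6J line and 4.02, 4.36 and 4.30 in the tsA58 line, with 6.68 and 6.87 in C57BL/6J tissue and 8.22, 6.87 and 5.97 in tsA58 tissue. All 3 tsA58 line arrays were below the array median for Rian and below every other array. Rian was lower in that line than in the C57BL/6J line (-3.62 ± 0.47, limma adjusted p = 0.00047) and than in tsA58 tissue (-2.79 ± 0.47), and its difference of differences was -3.86 ± 0.70 (limma adjusted p = 0.00432). Mirg was lower in the tsA58 line than in the C57BL/6J line, with a difference of -1.39 ± 0.31 (limma adjusted p = 0.00968), with means of 4.37 and 5.76. Mirg was not called against tsA58 tissue (-0.52 ± 0.31) or for the difference of differences (-0.18 ± 0.46, limma adjusted p = 0.821), and it was lower in tsA58 than in C57BL/6J tissue (-1.21 ± 0.35). Dlk1, on the other side of Meg3, was below the array median in both lines.

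Peg3 encodes a large zinc finger protein of the paternal chromosome. Its main probe set was high in all groups, at 9.85, 10.12 and 10.67 in the C57BL/6J line, 10.59 and 10.52 in its tissue, 9.83, 9.23 and 9.51 in the tsA58 line and 10.55, 8.63 and 9.20 in tsA58 tissue. The lines overlapped their own tissues. The line-tissue differences were -0.34 ± 0.47 (95% interval -1.38 to 0.70) and 0.07 ± 0.42 (-0.86 to 1.00), neither called. A 2-fold lower level lies inside the first interval. Another probe set, 1417355_at, was called higher in the tsA58 line than in tsA58 tissue (1.00 ± 0.36) and lower in tsA58 than in C57BL/6J tissue (-2.25 ± 0.40), where 4.90% of all probe sets were called lower and 10.6% higher. Another, 1417356_at, gave 1.14 ± 0.47 in the C57BL/6J line and was not called. The remaining 2 of its 5 probe sets stayed at 2.25 to 3.04.

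Grb10 encodes an adaptor that binds the insulin and Igf1 receptors and dampens growth signals. The main probe set gave 8.92, 8.87 and 9.03 in the C57BL/6J line, 9.70 and 9.70 in its tissue, 9.59, 10.24 and 10.06 in the tsA58 line and 10.11, 8.91 and 8.73 in tsA58 tissue. The lines did not overlap each other, and the tsA58 line overlapped its tissue. Grb10 was higher in the tsA58 line than in the C57BL/6J line by 1.02 ± 0.32 (limma adjusted p = 0.0443), just past both thresholds. That call ended without any 1 of the 6 line arrays (differences 0.89 to 1.21, limma adjusted p = 0.0521 to 0.134) or either C57BL/6J tissue array. The Grb10 call also ended with no filter on low values (limma adjusted p = 0.0545) and with a replicate block in the fit (0.0716). Of its other probe sets, 1430164_a_at was likewise higher in the tsA58 line than in the C57BL/6J line (1.26 ± 0.39). Against tissue it was called in opposite directions, at -1.38 ± 0.44 for the C57BL/6J line (limma adjusted p = 0.0245) and at 1.08 ± 0.39 for the tsA58 line (limma adjusted p = 0.0437). Its values were low: the C57BL/6J line (4.52, 4.31 and 4.07) and tsA58 tissue replicates 2 and 3 (3.94 and 4.66) were below the array median. The tsA58 line read 4.83, 5.27 and 6.57, the last from replicate 3. On 1425457_a_at the 3 arrays of the tsA58 line read 5.29, 5.58 and 8.07, the last from replicate 3.

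Between the lines, 2 of 9 genes were thus called lower in the tsA58 line (Meg3 and Igf2) and 1 higher (Grb10), where 5.77% of all genes were called lower and 8.38% higher. The other 6 genes differed by -0.73 to 0.18 on their main probe sets. Of these, Ndn was called higher in the tsA58 line on 4 of its 5 probe sets above the filter (2.57 to 2.95). On those 4 the C57BL/6J line was below the array median. With the mean of all probe sets of a gene, Ndn was called higher too (1.39, limma adjusted p = 0.00722). Centring on the hybridisation controls turned the split of all genes here to 7582 higher and 96 lower, from 1113 and 767. For Plagl1, Mest and Dlk1 all 6 line arrays were below the array median, so those arrays cannot order the lines. For Cdkn1c 4 of the 6 were above it, the highest at 5.39.

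**Figure D4:**
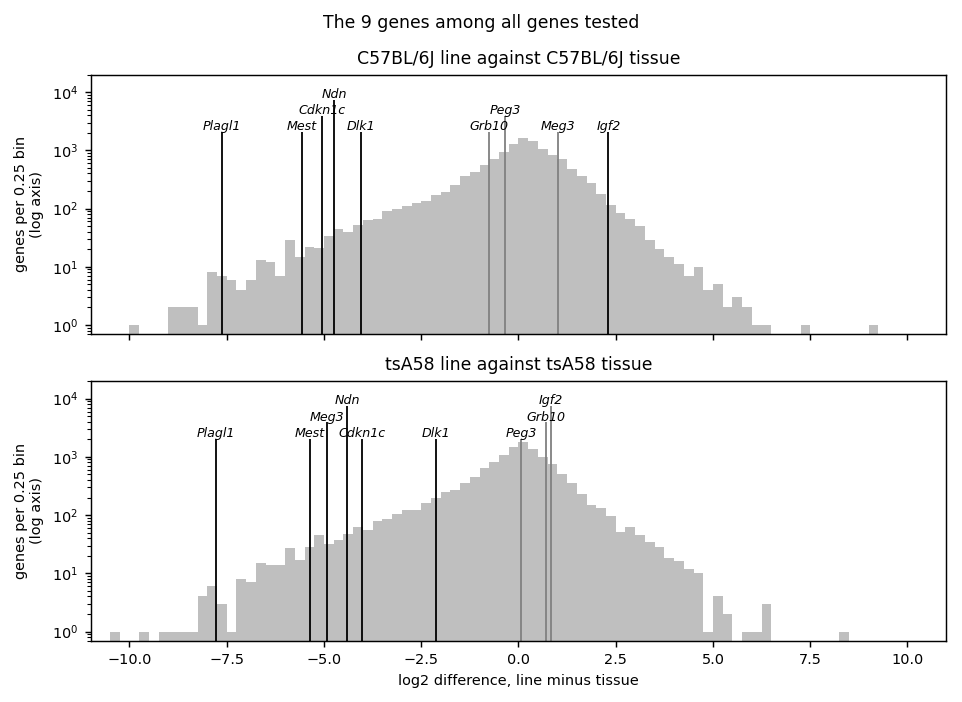
Number of genes (y axis, log scale) by log2 difference between line and tissue (x axis, bins of 0.25) over the 13285 genes tested, for the C57BL/6J strain (top) and the tsA58 strain (bottom). Vertical lines mark the 9 genes, black where called and grey where not, with Plagl1 at -7.62 and -7.77 in the left tail.

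Among the tissue arrays, tsA58 tissue replicate 1 stood apart in these genes. The C57BL/6J tissue arrays lay within 0.21 of their mean for each of the 9. On tsA58 tissue replicate 1, 8 of 9 main probe sets were higher than on replicates 2 and 3, where 38.8% of all 13285 genes were. On that array 7 of 9 were at least 1 above the mean of replicates 2 and 3, where 5.38% of all genes were. The gap was 3.14 for Dlk1, 2.12 for Mest, 2.10 for Meg3, 1.94 for Igf2, 1.64 for Peg3, 1.29 for Grb10 and 1.12 for Plagl1, and 0.65 for Cdkn1c and 0.48 for Ndn. Over all genes the median gap was 0.03. All 11 Meg3 probe sets, which measure 1 gene, were highest on that array within its group. So were the 3 of Peg3 and the 2 of Plagl1 above the filter. Those of other genes disagreed: 1 of 2 for Igf2, 2 of 3 for Grb10 and 2 of 5 for Ndn were highest there. A gap of at least 1 was seen on 1 of 3 for Grb10 and 0 of 5 for Ndn. Of the 29 other imprinted genes tested, 7 were at least 1 higher there and 1 at least 1 lower, beside 5.38% and 3.23% of all genes. Rian had a gap of 1.81.

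Several marker lists had their lowest or highest mean of tsA58 tissue on that array. Adipocyte markers set it furthest from both other arrays. On the other lists given here it lay near replicate 3 or, for endothelium, near replicate 2. Adipocyte markers (4 genes) averaged 6.32 on it against 9.16 and 8.63 on replicates 2 and 3, and 6.25 and 6.35 in C57BL/6J tissue. Gastric epithelium markers (8 genes) averaged 10.06 against 12.74 and 10.55, and macrophage markers (6 genes) 7.93 against 9.16 and 8.31. Enteric neuron markers averaged 9.53 against 8.49 and 9.17, and endothelial markers (5 genes) 6.90 against 6.73 and 6.01. Exocrine pancreas markers (4 genes) averaged 4.7 on it, but 10.53 on C57BL/6J tissue replicate 1 and 9.56 on tsA58 tissue replicate 2, against 5.34 to 5.52 on the other 2. The hybridisation controls were lowest on this array, at 7.52 against 9.04 and 9.66. The part of these in the gap was not tested.

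**Figure D5:**
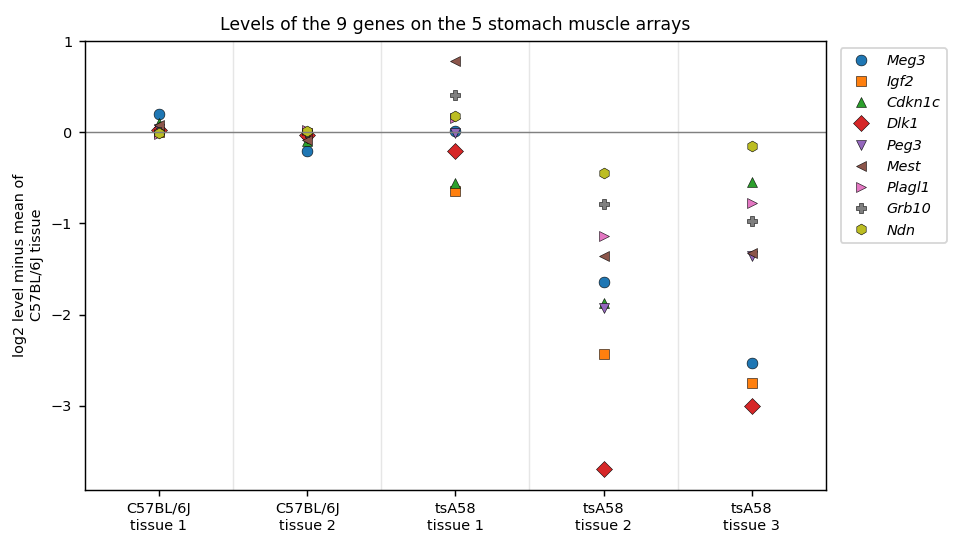
Log2 level of each of the 9 genes on each of the 5 stomach muscle arrays (x axis), minus that gene's mean in C57BL/6J tissue (y axis). On tsA58 tissue replicate 1 the genes lie near the C57BL/6J level, while on replicates 2 and 3 all 9 lie below it.

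Between the tissues, 1 of 9 genes was called, Igf2, lower in the tsA58 strain, where 3.21% of all genes were called lower and 9.56% higher. The other 8 differences were all negative, from -2.30 ± 0.76 for Dlk1 (limma adjusted p = 0.0568) to -0.14 ± 0.45 for Ndn. Without tsA58 tissue replicate 1, 5 genes were called lower: Dlk1 (-3.35), Igf2 (-2.59), Meg3 (-2.09), Peg3 (-1.64) and Mest (-1.34). Over all genes tested in that fit, 548 were called lower and 1188 higher. With all arrays centred on the hybridisation controls, which moved the median difference of all genes from 0.18 to 2.30, only Dlk1 among the 9 kept a negative sign, and Mest, Plagl1, Grb10 and Ndn were called higher. The split of all genes there was 12167 higher and 18 lower, against 1270 and 426. Against that shift all 9 were still below the median of all genes.

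Of the other imprinted genes on the list, 29 of 46 were tested. In the C57BL/6J line 9 were lower than in tissue and 2 higher (median -0.63, against 0.12 over all genes), where 16.6% and 17.5% of all genes were. In the tsA58 line 11 were lower and 2 higher (median -0.52, against 0), where 18.9% and 12.8% of all genes were. Furthest down in both were Nap1l5, a histone chaperone relative (-5.64 ± 0.20 and -6.04 ± 0.18), Nnat, a small membrane protein of neurons and endocrine cells (-4.54 ± 0.66 and -4.54 ± 0.59), and Ppp1r9a, an actin-binding neurabin (-4.19 ± 0.38 and -4.04 ± 0.34). Each of these was below the array median on every line array. Higher in both was Sfmbt2, a polycomb group gene (1.81 ± 0.41 and 1.51 ± 0.36). Its tissue levels were near or below the array median, at 4.25 and 4.91 in the C57BL/6J strain and 4.91, 3.72 and 3.90 in the tsA58 strain. Between the lines 3 were lower in the tsA58 line (Rian, Mirg and Airn) and 1 higher, Mcts2 (1.77 ± 0.27), of 29, where 5.77% and 8.38% of all genes were. Between the tissues 2 were lower in the tsA58 strain (Airn, -2.04 ± 0.32, and Mirg, -1.21 ± 0.35) and 1 higher (Osbpl5, 1.33 ± 0.28), where 3.21% and 9.56% of all genes were.

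Partners of Igf2 were followed on a list of 19 genes, 17 of them tested. Igf2r, the imprinted receptor that clears Igf2, was higher in the tsA58 line than in tsA58 tissue (1.28 ± 0.23, limma adjusted p = 0.001), and its difference of 0.51 ± 0.25 in the C57BL/6J line was not called. Of the 17, 4 were lower and 1 higher in the C57BL/6J line than in its tissue, and 6 lower and 2 higher in the tsA58 line. Among all genes 16.6% were lower and 17.5% higher in the first comparison, and 18.9% and 12.8% in the second. The binding protein Igfbp2, which sequesters insulin-like growth factors, was lower in both (-3.43 ± 0.36 and -5.44 ± 0.32). Between the lines, the tsA58 line had lower Igfbp7 (-3.34 ± 0.54), Igfbp4 (-3.26 ± 0.51) and Igf1 (-2.18 ± 0.70) and higher Igf1r (1.1 ± 0.32). Igf1 stood at 8.60, 5.25 and 7.05 on the arrays of that line, so its replicates were far apart. Between the tissues Igfbp2 (1.83 ± 0.36) and Igfbp5 (1.28 ± 0.22) were higher in the tsA58 strain.

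Of the genes that set or keep imprints, 15 of 18 were tested. Against tissue, the C57BL/6J line had 2 called higher and 2 lower, beside 17.5% and 16.6% of all genes. The tsA58 line had 3 called higher and 1 lower, beside 12.8% and 18.9%. In the C57BL/6J line Ehmt2, a histone H3 methyltransferase (2.43 ± 0.21), and Zfp57, a zinc finger protein that protects imprints (1.37 ± 0.31), were higher, and the demethylase Tet1 (-3.42 ± 0.70) and the methyltransferase Dnmt3a (-1.89 ± 0.60) were lower. In the tsA58 line the maintenance methyltransferase Dnmt1 (2.34 ± 0.28), its partner Uhrf1 (4.18 ± 0.72) and Zfp57 (1.67 ± 0.28) were higher and Tet1 (-2.58 ± 0.62) was lower. In tsA58 tissue Uhrf1 (6.71, 4.51 and 3.81) and Zfp57 (4.82, 4.07 and 4.65) were below the array median on replicates 2 and 3. On tsA58 tissue replicate 1, 4 of the 15 were at least 1 above the mean of replicates 2 and 3, among them Uhrf1 (2.55) and Tet1 (2.85), and 0 were at least 1 below. Among all genes 5.38% and 3.23% were. Between the lines Arid4a was higher in the tsA58 line (1.69 ± 0.44) and Tet2 lower (-1.22 ± 0.29), 1 each of 15, beside 8.38% and 5.77% of all genes. Between the tissues Ehmt2 (1.28 ± 0.21) and Mbd3 (1.11 ± 0.20) were higher in the tsA58 strain and Tet2 (-1.84 ± 0.33) and Dnmt1 (-1.07 ± 0.31) lower, 2 each of 15, beside 9.56% and 3.21% of all genes. DNA methylation itself was not measured.

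Across the 11 arrays, which share groups and scaling, Plagl1, Mest, Cdkn1c and Ndn had the same pattern, with Pearson r of 0.96 to 0.99 between each pair, and Dlk1 correlated with them at 0.81 to 0.89. Igf2, Peg3 and Grb10 stood outside it, at -0.46 to -0.36, 0.04 to 0.20 and -0.02 to 0.08 with the same 4. Meg3 correlated with those 4 at only 0.29 to 0.40. Meg3 correlated best with Igf2 (0.62) among the 9. Among all genes tested, the 2 most like Meg3 were the matrix genes Col8a1 (r = 0.997) and Vcan (0.987), the latter with means of 8.4, 7.90, 3.35 and 6.79 in the C57BL/6J line, its tissue, the tsA58 line and its tissue. Most like Igf2 were Tgif2 (0.978) and 1500011B03Rik (0.951), and most like Dlk1 were Frem2 (0.993) and the angiotensin receptor gene Agtr2 (0.986). For Plagl1 they were Spon1 and Ldb2 (0.998 each), for Mest the glypican gene Gpc3 and Prrg3 (0.995 each), for Cdkn1c Smarca1 (0.995) and Clvs1 (0.994), and for Ndn Pcp4 and Prkg1 (0.993 each). Peg3 was nearest to Garre1 (0.948) and Epm2aip1 (0.908), and Grb10 to Xkr5 (0.937) and Nrm (0.932). These are descriptions over 11 arrays in 4 groups.

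In tsA58 line replicate 3, 2 of the 9 genes were at least 1 above the mean of replicates 1 and 2, Ndn (by 1.68) and Igf2 (by 1.21), and 0 were at least 1 below, where 5.52% and 10.4% of all genes were. On the same array mesothelium markers (5 genes) averaged 9.86 against 7.29 and 6.29, fibroblast markers 8.08 against 6.78 and 6.86, and the 3' to 5' log2 ratio of the actin control was 0.05 against 0.51 and 0.85. Their part was not tested. Without that array Igf2 was -3.82 between the lines and Meg3 -7.45, both still called.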

How the data were processed

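Total RNA (about 50 ng per sample) was amplified in 2 rounds, the first primed with oligo(dT), labelled with biotin and hybridised to Affymetrix mouse genome arrays, per the labels' protocols. The authors deposited log2 intensities, 1 per probe set and array. The submitters' processing notes name RMA, with no version. RMA removes a shift common to most transcripts, so differences are relative to the bulk of each array. Depth does not apply to arrays, and the number of arrays limits the precision.

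Of 45101 probe sets, 64 were controls, 34945 carried 1 gene symbol, 932 several and 9160 none. Identifiers of 34741 were found in a RefSeq table (GRCm38.p6), which changed 0 symbols. The brightest probe set on average stood for a gene, which was tested if above the array median on at least 2 arrays. limma 3.58.1 in R 4.3.3 (lmFit, eBayes; 7 residual and 3.49 prior degrees of freedom) fitted 4 group means, with 5 comparisons and Benjamini-Hochberg adjustment over 13285 genes. Other probe sets were read from the same fit over 23484 probe sets. The fit was tested on simulated data. Plots were drawn with matplotlib 3.10.9 under Python 3.11.15, and sequences were read with pandas 2.3.3.

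Groups came from sample titles. Named were the 9 measured genes in every comparison, called genes of 3 lists (other imprinted genes, imprint control, Igf2 partners) with the largest differences, up to 4 per list and comparison, of which a part is printed, the 2 genes most like each member, and markers of cell types. Igf2r, Sfmbt2 and the comparisons of Rian and Mirg with their tissue fall outside that rule and were picked after their values were seen. The members and lists were chosen with earlier results of these data known. Replicate numbers were checked for pairing: deviations of same-numbered arrays correlated at -0.16 to 0.25, so arrays were not paired. Alternatives covered the filter, 2 scalings, the arrays in the fit, a replicate block, the probe set rule and leaving out each array.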

Additional observations from a re-analysis of the deposited data

Results flagged for a closer look

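The line-tissue difference of Meg3 differed between the strains by the test of that difference itself. It was -4.93 ± 0.50 in the tsA58 strain and 1.02 ± 0.55 in the C57BL/6J strain, and the difference between them was -5.95 ± 0.74 (limma adjusted p = 0.000792, n = 2 or 3 arrays per group). All 3 tsA58 line arrays were below all 3 tsA58 tissue arrays, while all 3 C57BL/6J line arrays were above both C57BL/6J tissue arrays. No group had enough arrays for a test of single arrays that stand apart.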

How the results depend on the processing

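Quantile normalisation, the filter, the probe set rule, the replicate block and the fit of only the compared groups left the count of called genes among the 9 within 1.5 times its value in the line-tissue and line-line comparisons. Single calls did change between the lines. Grb10 lost its call with no filter (limma adjusted p = 0.0545), and Ndn gained a call with the mean of all probe sets (1.39). Between the tissues, 1 of 9 was called, but 2 with quantile normalisation, 2 with all probe sets tested, 4 with centring on the hybridisation controls, 0 with only the groups compared, 0 with the replicate block, 5 without tsA58 tissue replicate 1 and tsA58 line replicate 3 together (chosen after seeing the data), and 0 to 5 when 1 array was left out. Under that replicate block, which the pairing check did not call for, Igf2 between tissues (adjusted p = 0.0693) and Grb10 between lines (adjusted p = 0.0716) lost their calls and no other call changed. For the difference of differences the count was 1, but 2 with quantile normalisation, 3 with the mean of all probe sets, 2 with all probe sets tested, 4 without both arrays, and 1 to 3 with 1 array left out. Centring on the hybridisation controls gave 5 of 9 between the lines, where 3 had been called, and moved the count over all genes from 1880 to 7678 between lines, from 1696 to 12185 between tissues and from 2702 to 577 for the difference of differences. With 1 array left out the counts over all genes ranged from 775 to 1904 between tissues, from 1351 to 2675 between lines and from 1458 to 3703 for the difference of differences.

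Signs that turned under that centring were, for the C57BL/6J line against tissue, Peg3 (0.89) and Grb10 (0.47); between the lines, Dlk1 (1.12), Peg3 (0.80), Mest (1.06) and Plagl1 (0.76); between the tissues, Meg3 (0.74), Igf2 (0.18), Cdkn1c (1.14), Peg3 (1.03), Mest (1.49), Plagl1 (1.55), Grb10 (1.68) and Ndn (1.99); and for the difference of differences, Peg3 (-0.23), Mest (-0.43) and Ndn (-0.32). With the mean of all probe sets, Meg3 (-0.01) and Peg3 (0.07) turned in the C57BL/6J line against tissue and Ndn (0.01) between tissues. Without both arrays, Ndn turned between lines (-0.38), and Plagl1 (0.26) and Ndn (-0.08) in the difference of differences. Leaving out 1 array moved Peg3 in the tsA58 line against tissue from -0.35 to 0.61, Cdkn1c between lines from -0.17 to 0.21, Ndn between lines from -0.38 to 0.52, Ndn between tissues from -0.30 to 0.01, and, for the difference of differences, Peg3 from -0.01 to 0.95, Mest from -0.16 to 0.91, Plagl1 from -0.43 to 0.22 and Ndn from -0.24 to 0.66. The cause was not tested. On the main probe sets of Plagl1, Mest and Dlk1 all 6 line arrays were below the array median, which limits how large those differences can be read.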
